A study of Mus musculus with 26 samples.

Results

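The genes described here are 10 genes of major histocompatibility complex (MHC) class I antigen presentation, taken by symbol from a table of 23420 gene symbols. They are B2m, H2-K1, H2-D1, Tap1, Tap2, Tapbp, Psmb8, Psmb9, Psmb10 and Nlrc5. All 10 were in the table, and all 10 passed the filter that left 13311 genes for testing (a normalized count of at least 10 in at least 2 libraries). RNA was sequenced from antigen-presenting cells of mice labelled mTORΔAPC, called KO here, and of wild-type littermates, called WT. The 26 libraries form 10 groups, one per genotype for each of 5 cell types. CD8a dendritic cells (DCs) and CD11b DCs of the spleen had 2 libraries per genotype. CD11b DCs of the lung, alveolar macrophages and inflammatory lung DCs had 3 per genotype. The inflammatory DCs came from mice given house dust mite extract through the nose, 25 µL at 1 mg/mL, and were taken on day 17 in the sample labels or day 18 in the protocol. All other cells were taken at steady state. Which promoter drives the deletion, which exons it removes, the ages of the mice and whether animals were pooled are not given in the sources used here.

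MHC class I molecules show peptides from inside the cell to CD8+ T cells. Proteins are cut by the proteasome, the peptides are pumped into the endoplasmic reticulum, and there they are loaded onto a heavy chain paired with beta-2 microglobulin. In cells exposed to interferon, and constitutively in many immune cells, the immunoproteasome subunits take the place of the standard catalytic subunits. DCs can also load peptides from engulfed material onto class I, which is called cross-presentation and is best known from the CD8a DCs of the spleen.

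Each gene has a place in that route. Nlrc5 encodes the transactivator of class I genes. H2-K1 and H2-D1 encode classical heavy chains and B2m encodes beta-2 microglobulin. Tap1 and Tap2 encode the subunits of the peptide transporter, and Tapbp encodes tapasin, which bridges the transporter and the heavy chain. Psmb8, Psmb9 and Psmb10 encode the immunoproteasome's catalytic subunits, which replace Psmb5, Psmb6 and Psmb7 in that order. In GENCODE M21 (GRCm38), all 10 are protein coding, and 7 of them lie in the MHC region of chromosome 17. Tapbp lies at 33915899 to 33929292, H2-K1 at 33996017 to 34000347, Psmb9 at 34181987 to 34187764, Tap1 at 34187553 to 34197225, Psmb8 at 34197721 to 34201454, Tap2 at 34203527 to 34216321 and H2-D1 at 35262730 to 35267499. B2m lies on chromosome 2 at 122147686 to 122153083, Nlrc5 on chromosome 8 at 94434356 to 94527272 and Psmb10 on chromosome 8 at 105935735 to 105938444. The annotated 5′ ends of Psmb9 and Tap1, which lie on opposite strands, overlap. Since the strand setting of the counting is not given, reads there cannot be told apart. H2-K1 and H2-D1 have close relatives in the class I family, so their counts depend on how shared reads were assigned, which is not given either.

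The promoters of H2-K1, H2-D1 and B2m are shown because the same pair of short motifs occurred in all of them. The sequences are from RefSeq (GRCm38.p6) and are read 5′ to 3′ on the gene's own strand. Capitals mark TGACG, the core of the X2 element of class I promoters, and ATTGG, an inverted CCAAT box (Y element), with 20 bases between them. In the H2-K1 and B2m sequences they also mark an interferon-type element (GAANNGAAA or GAAANNGAA on either strand), and in H2-K1 a kappa-B-type element (GGGATTCC on either strand). The H2-K1 stretch is chr17:34000351-34000465 (minus strand), the H2-D1 stretch chr17:35262993-35263022 (plus strand) and the B2m stretch chr2:122147540-122147646 (plus strand). The H2-D1 stretch lies before the RefSeq start but inside the gene as annotated in GENCODE.
H2-K1: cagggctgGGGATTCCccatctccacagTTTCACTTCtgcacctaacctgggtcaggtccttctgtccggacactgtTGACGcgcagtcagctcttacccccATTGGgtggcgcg
H2-D1: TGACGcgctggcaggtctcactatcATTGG
B2m: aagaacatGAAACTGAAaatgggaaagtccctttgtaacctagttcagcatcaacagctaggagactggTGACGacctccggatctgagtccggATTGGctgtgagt

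Promoter sequence was matched for 8 of the 10 genes, and the 250 bases before each RefSeq start were searched. By the GENCODE spans above, the windows of H2-D1, Tapbp, Psmb8 and Psmb9 lie inside the annotated gene. The bases before their GENCODE starts were not searched. The pair at this spacing was in 3 of those 8 genes and in 26 of the 27025 genes in the promoter table (0.0962%). The spacing was chosen after reading these promoters, so the comparison is a description. Of the 26 genes, 21 were tested for expression, and a further class I gene, H2-M3, was among them. Lined up on the pair, H2-K1 and H2-D1 were identical at 94 of 105 bases (89.5%). H2-D1 also held the interferon-type and kappa-B-type elements. The interferon-type element was in 12.5% of all promoters and the kappa-B-type element in 0.889%. Between the RefSeq starts of Psmb9 and Tap1 lie 225 bases, which held TGACG and a CCAAT box at another spacing. TGACG on its own was in 17.8% of promoters and the CCAAT box in 33.8%, on either strand. Psmb8 and Psmb10 held none of these motifs in the window, and Tapbp held the CCAAT box alone. A match is a string of letters and shows no binding.

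The libraries held 7366907 to 14145027 reads each and 12992 to 14407 genes above 0. Mtor, the targeted gene, was called lower by limma in 4 of the 5 KO cell types. Its normalized count (reads divided by the library's size factor) fell from 405 to 54.2 in spleen CD8a DCs, from 375 to 72.8 in spleen CD11b DCs, from 360 to 89.1 in alveolar macrophages and from 412 to 261 in lung CD11b DCs. Inflammatory DCs held 362 in WT against 217 in KO, a log2 difference of -0.74 ± 0.22 that limma did not call (adjusted p = 0.0668) and that edgeR (adjusted p = 0.0477) and DESeq2 (adjusted p = 0.0161) did. The lung CD11b call for Mtor was lost without WT replicate 1 (adjusted p = 0.0875), without KO replicate 3 (log2 difference -0.42, adjusted p = 0.156), under sample weights (adjusted p = 0.112) and in a fit of its 6 libraries alone (adjusted p = 0.199), and fitting each pair alone also ended both spleen calls (adjusted p of 0.154 and 0.233). In all 5 cell types the highest KO value of Mtor lay below the lowest WT value. Y-linked transcripts were nearly absent from the steady-state WT libraries (summed normalized count at most 2.3). They were present in every KO library of both spleen cell types and of alveolar macrophages (659.5 to 3295.1), in 1 of 3 KO lung CD11b libraries (replicate 1, 1317.7) and in all inflammatory DC libraries (1419.8 to 2523). Xist, the transcript of the inactive X of female cells, was also present in some of the libraries with Y-linked reads, such as KO replicate 1 of spleen CD8a DCs (3619.7). In both spleen cell types and in alveolar macrophages the male share of the RNA therefore goes with the genotype, and the group means alone cannot tell them apart. Only KO lung CD11b DCs held Y-linked reads in 1 library while nearly lacking them in others (0.8 and 1.3 in replicates 2 and 3). A term for Y-linked reads, used below, therefore rests mostly on KO replicate 1 there. It cannot separate sex from genotype in the other cell types. Of the defining markers, Xcr1 averaged 6370 in WT CD8a DCs and 158.8 or less in the other WT groups, and Siglec5 7198 in WT alveolar macrophages and 510.9 or less elsewhere in WT. Sirpa, a CD11b DC marker, averaged 9701 and 8495 in WT CD11b DCs of spleen and lung, but 27830 in WT alveolar macrophages and 17070 in WT inflammatory DCs. Vcam1, a red pulp macrophage marker, averaged 9737 in WT CD8a DCs and 856 in WT spleen CD11b DCs. The inflammatory DCs were low in the DC marker Flt3 (129 in WT, 29.4 in KO), and 9 alveolar macrophage markers summed to 809600 or more in each of their WT libraries, above the 319100 to 329100 of WT alveolar macrophages, although Siglec5 itself averaged 511.

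Among WT cells, each of the 10 genes had its lowest mean in alveolar macrophages. For Tap2, Tapbp and Psmb10 the libraries overlapped those of the next group, and for the other 7 genes they lay apart. The share of all tested genes with such an order was not computed. Against WT lung CD11b DCs alone, 27.2% of all tested genes were called lower in alveolar macrophages. For B2m, H2-K1, H2-D1, Tapbp and Psmb10 the highest mean was in inflammatory DCs, and for Tap1, Tap2, Psmb8, Psmb9 and Nlrc5 it was in spleen CD8a DCs. Per kilobase of exon, B2m was the most abundant of the 10 in every WT cell type, followed by H2-D1 and H2-K1, and Nlrc5 was the least abundant. In spleen CD8a DCs the mean normalized count per kilobase was 18731 for B2m, 7631 for H2-D1, 6574 for H2-K1, 2074 for Psmb8 and 146 for Nlrc5. In alveolar macrophages the same scale gave 11091 for B2m and 6.51 for Nlrc5.

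**Figure D1:**
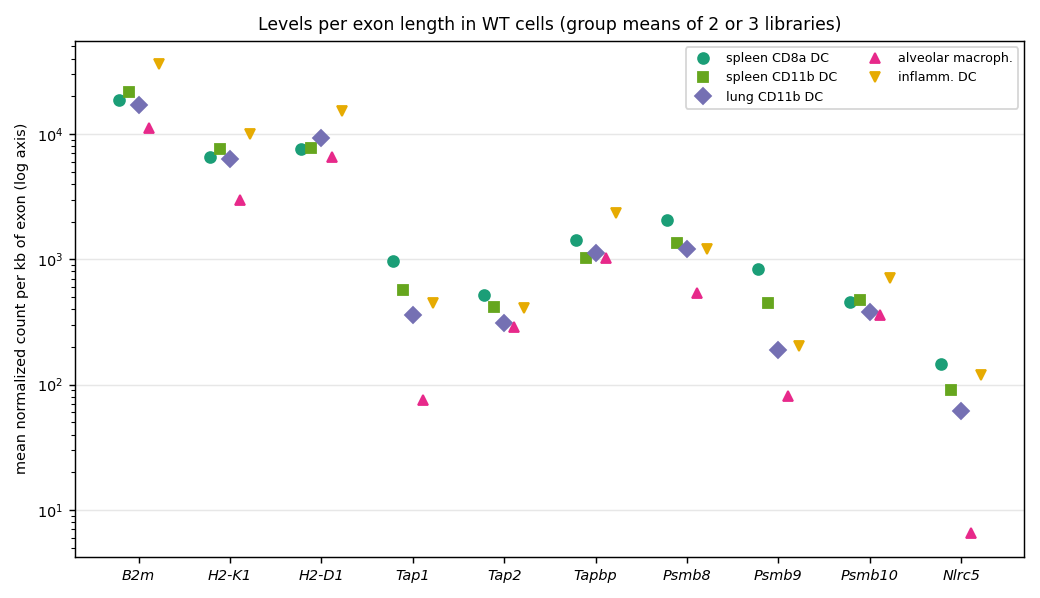
Mean normalized count per kilobase of exon (log axis) of the 10 genes in the WT libraries of the 5 cell types; each point is a group mean of 2 or 3 libraries. Nlrc5 lies lowest in every cell type, at 146 in spleen CD8a DCs and 6.51 in alveolar macrophages.

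Nlrc5 averaged 1243 ± 300.03 (SD, n = 2) in WT spleen CD8a DCs, 1017 ± 84.1 (n = 3) in inflammatory DCs, 769 ± 103 (n = 2) in spleen CD11b DCs, 526 ± 89.7 (n = 3) in lung CD11b DCs and 55.3 ± 17.9 (n = 3) in alveolar macrophages. CD8a and inflammatory DCs overlapped, and the other neighbours in that order did not. Tap1 averaged 5305 ± 151 in spleen CD8a DCs, 3137 ± 97.9 in spleen CD11b DCs, 2467 ± 47.8 in inflammatory DCs, 1974 ± 343 in lung CD11b DCs and 416 ± 20.7 in alveolar macrophages, with no overlap between neighbours.

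The transactivator Nlrc5 had normalized counts of 72.0, 36.4 and 57.5 in the WT alveolar macrophage libraries and of 594.8, 559.3 and 424.8 in WT lung CD11b DCs. The groups did not overlap, and Nlrc5 was lower by a log2 difference of -3.27 ± 0.28 (SE; limma, adjusted p = 1.02e-09). Tap1 was 428.3, 428.3 and 392.5 in alveolar macrophages against 1736.6, 2367.4 and 1819.5 in lung CD11b DCs, a log2 difference of -2.23 ± 0.13 (adjusted p = 1.28e-12). In this comparison 7 of the 10 genes were called lower and none higher, where 51.2% of all tested genes were called in either direction. H2-K1 (-1.08), Psmb8 (-1.18), Psmb9 (-1.18), B2m (-0.60) and H2-D1 (-0.49) were the others. Tap2 (-0.10), Tapbp (-0.12) and Psmb10 (-0.09) were not called. The members' median log2 difference was -0.84 and that of all tested genes -0.01.

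Inflammatory DCs held more transcript of most of the genes than steady-state lung CD11b DCs. In this WT pair 8 of 10 genes were called higher (background 47.5% called). Tapbp, tapasin, was 8120.5, 8954.1 and 8581.2 in inflammatory DCs against 3947.7, 4348.9 and 3899.3, a log2 difference of 1.07 ± 0.09 (adjusted p = 1.13e-09). B2m was 2.14-fold higher, and the log2 differences were 0.96 for Nlrc5, 0.89 for Psmb10, 0.70 for H2-D1, 0.65 for H2-K1, 0.39 for Tap2 and 0.33 for Tap1. Psmb8 (a mean of 4091 against 4097) and Psmb9 (0.14) were not called. Y-linked reads, the treatment and the cell type all differ between these groups and cannot be told apart. With a term for Y-linked reads, Tap1 was no longer called (0.38) and Tap2 changed sign (-0.39, adjusted p = 0.149). Tap1 also lost its call without lung WT replicate 1 or 3 or any 1 of the inflammatory WT libraries (adjusted p of 0.068 without inflammatory WT replicate 1 to 0.174 without lung WT replicate 1), and Tap2 without lung or inflammatory WT replicate 1 or 3 (adjusted p of 0.0802 to 0.132).

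Spleen CD8a DCs exceeded spleen CD11b DCs in 4 of 10 genes (background 23% called): Psmb9 (0.91 ± 0.14, adjusted p = 2.69e-05), Tap1 (0.76), Psmb8 (0.62) and Tapbp (0.46). Psmb9 was 3132.2 and 3023.8 in CD8a against 1572.0 and 1709.7 in CD11b DCs. H2-K1 (-0.21), H2-D1 (-0.03) and B2m (-0.21) were not called in that pair, nor were Tap2 (0.33), Psmb10 (-0.05) and Nlrc5 (0.68). The 11 red pulp macrophage markers summed to 33520 to 57330 in these WT CD8a libraries against 8989 to 11670 in WT spleen CD11b DCs, and their part in the class I values was not tested. Between the CD11b DCs of the organs, Psmb9 (-1.27 ± 0.13, adjusted p = 2.97e-08) and Tap1 (-0.68) were lower in lung than in spleen, and 8 genes were not called (background 34.9% called). Without lung WT replicate 3, 4 of the 10 were called in that pair. Between neighbours in the order of WT means, Psmb8 overlapped among spleen CD11b, lung CD11b and inflammatory DCs, and so did B2m among spleen CD11b, spleen CD8a and lung CD11b DCs.

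**Figure D2:**
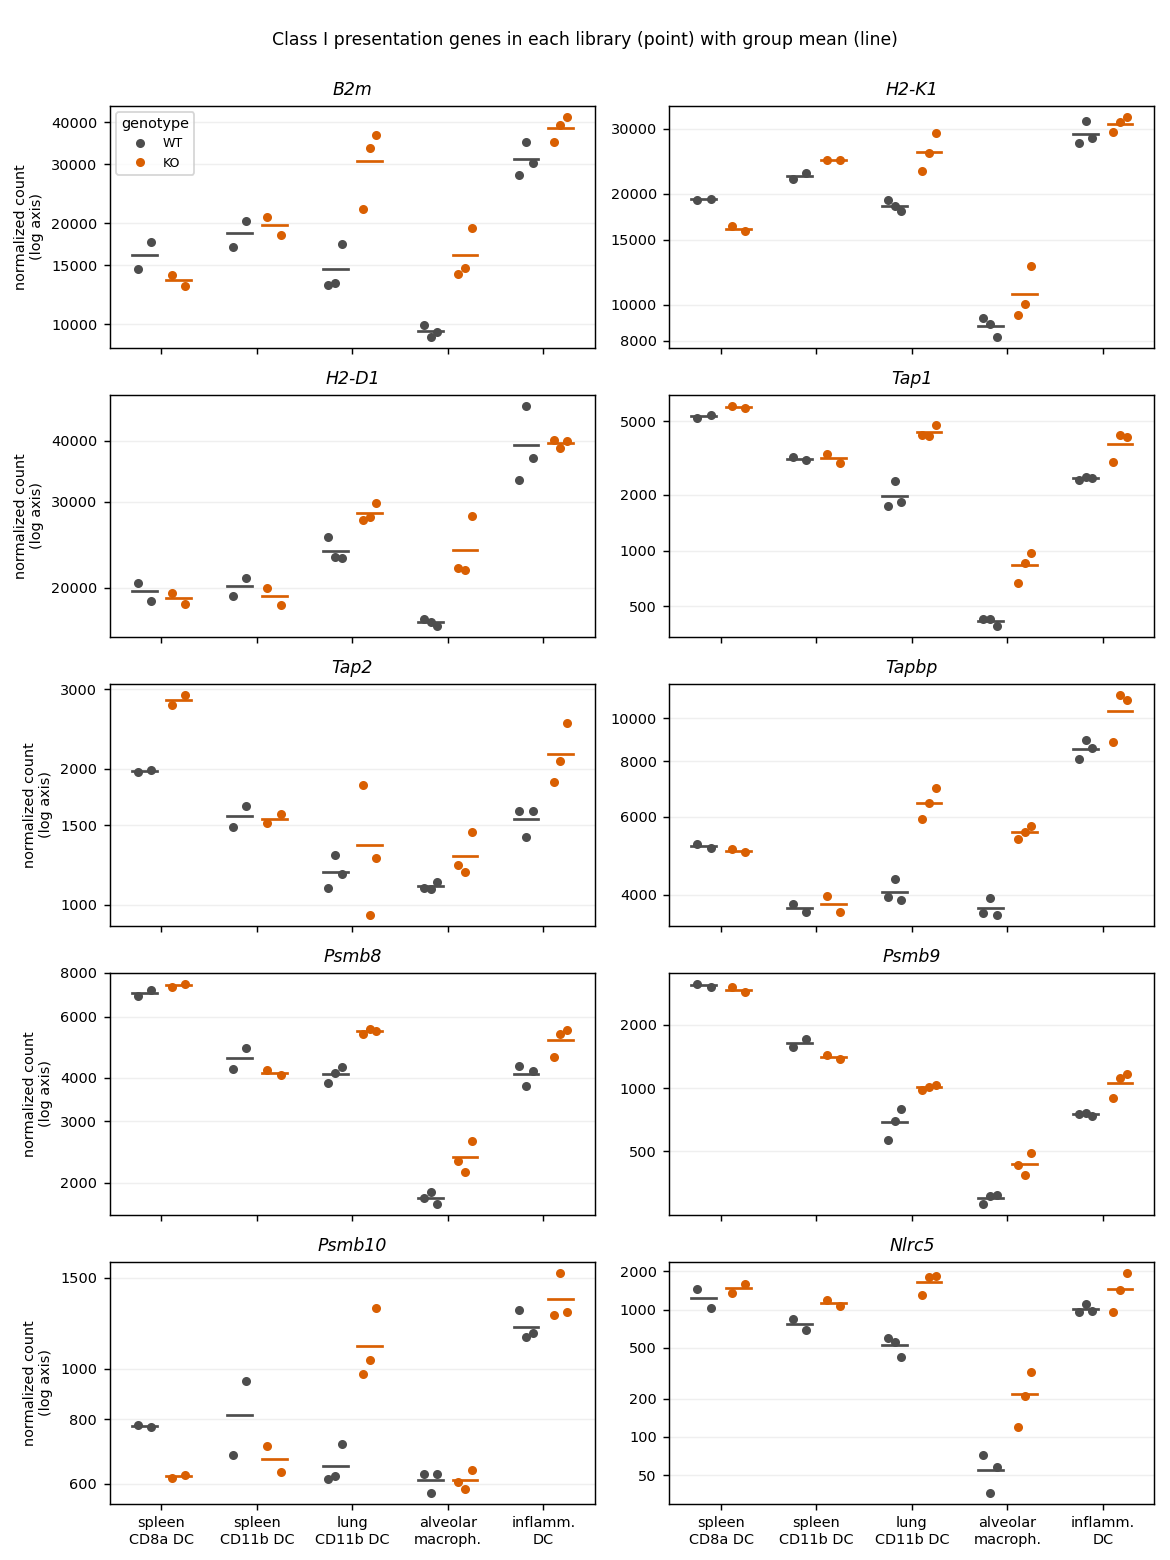
Normalized count (log axis, 1 panel per gene) of all 26 libraries, arranged by cell type, with WT in grey and KO in orange; points are libraries and short lines group means. In lung CD11b DCs and alveolar macrophages the KO points of Tap1, Tapbp and Nlrc5 lie above all WT points of the same cell type, while those of Psmb10 overlap in alveolar macrophages.

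In lung CD11b DCs of KO mice 8 of the 10 genes were called higher and 0 lower, where 26.1% of all tested genes were called in either direction. Their median log2 difference was 0.62 and that of all tested genes -0.05. The regulator, the light chain and the transporter subunit Tap1 changed most, at 3.13-fold, 2.08-fold and 2.24-fold.

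Nlrc5 was 594.8, 559.3 and 424.8 in WT against 1301.2, 1809.2 and 1854.3 in KO libraries. The lowest KO library was above the highest WT library (log2 difference 1.65 ± 0.28, adjusted p = 0.000143). B2m was 13067, 13251 and 17383 in WT against 22049, 33459 and 36540 in KO. Again the groups were apart (1.05 ± 0.16, adjusted p = 4.1e-05), with KO replicate 1 the lowest of the KO libraries. The heavy chain gene H2-K1 was 19241, 18479 and 17941 in WT against 23030, 25781 and 29270 in KO (0.48 ± 0.11, adjusted p = 0.00184). The other heavy chain gene, H2-D1, was 25443, 23087 and 23029 in WT against 27476, 27901 and 29806 in KO libraries. Its groups did not overlap, but 0.25 ± 0.12 was below the call (adjusted p = 0.115).

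Of the transporter subunits, Tap1 was 1736.6, 2367.4 and 1819.5 in WT against 4212.8, 4141.2 and 4789.3 in KO (1.16 ± 0.13, adjusted p = 8.24e-07). Tap2 was 1088.8, 1287.9 and 1171.3 in WT against 1839.9, 950.5 and 1268.8 in KO, so that its groups overlapped (0.14 ± 0.15, adjusted p = 0.53). The transporter's partner Tapbp rose from 3947.7, 4348.9 and 3899.3 to 5927.8, 6460.9 and 6961.3 (0.66 ± 0.09, adjusted p = 6.66e-06). Among the immunoproteasome genes, Psmb10 rose by 0.76 ± 0.12 (from a mean of 650 to 1109, adjusted p = 5.63e-05), Psmb9 by 0.57 ± 0.11 (686 to 1007, adjusted p = 0.00064) and Psmb8 by 0.41 ± 0.09 (4097 to 5442, adjusted p = 0.00129).

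The sorted lung CD11b cells differed in other ways between the genotypes. Ly6c2, a monocyte marker, was 58.5, 53.9 and 176.5 in the WT libraries and 2568.6, 3659.3 and 3397.7 in KO. Flt3, a receptor of conventional DCs, averaged 2654 in WT and 628 in KO, and the summed count of 8 cDC2 markers was 61020 to 68070 in WT and 23440 to 33500 in KO. The summed count of 6 markers shared by conventional DCs went the other way, at 12740 to 19010 in WT and 20920 to 24100 in KO. The sum of 8 monocyte markers overlapped, at 67620 to 77310 in WT and 70470 to 100400 in KO. Ccr2, with Ly6c2 the defining marker of that list, averaged 8769 in WT and 8481 in KO. Most of the sum came from the rest of the list. In bulk samples fewer cells of a type and less RNA per cell cannot be told apart, and the part of these markers in the class I values was not tested. WT replicate 3 and KO replicates 2 and 3 had fewer genes above 0 (12992 to 13173) than the other lung CD11b libraries (13876 to 14407). The part of this difference was not tested. The count stayed at 8 with each library left out in turn, KO replicate 1 included. The count was also 8 with a term for Y-linked reads, which rests mostly on KO replicate 1 and is no separate check. With the 6 lung CD11b libraries fitted alone it was 5, without B2m (adjusted p = 0.0606), H2-K1 (adjusted p = 0.108) and Psmb9 (adjusted p = 0.0711).

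**Figure D3:**
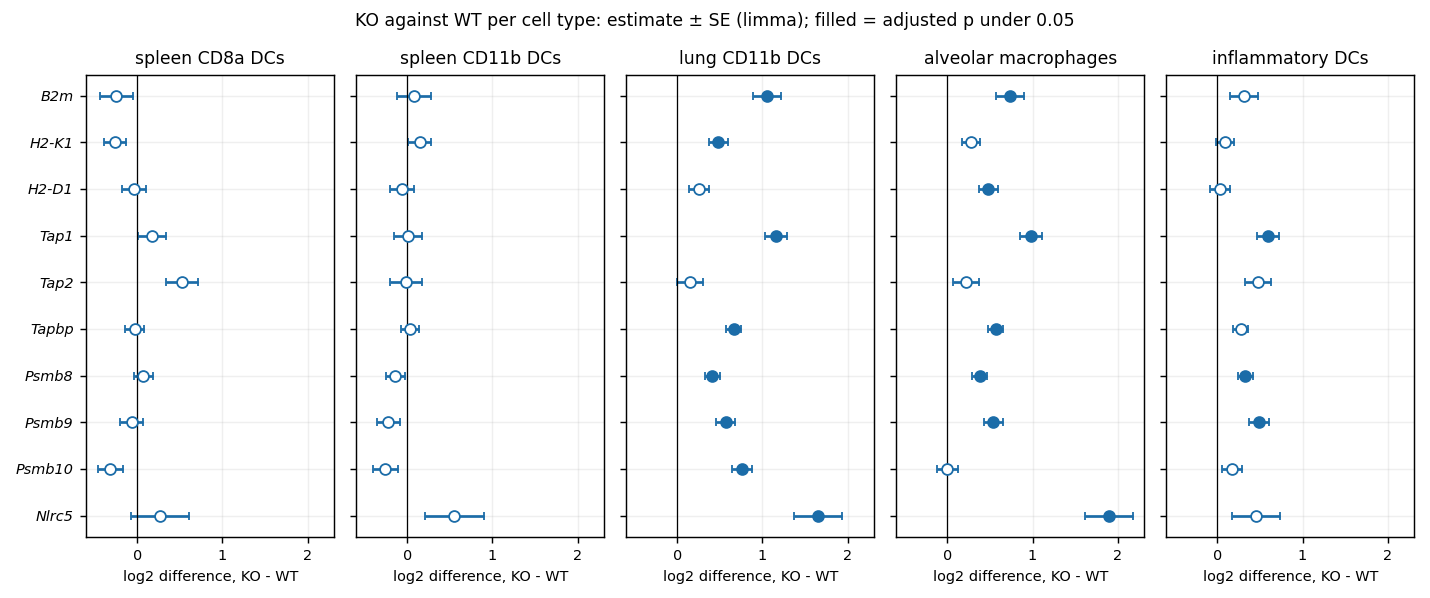
Log2 difference KO minus WT with its standard error for the 10 genes in each of the 5 cell types (limma); filled points have an adjusted p under 0.05. There are 8 filled points in lung CD11b DCs, 7 in alveolar macrophages, 3 in inflammatory DCs and 0 in both spleen cell types.

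In KO alveolar macrophages 7 of the 10 genes were called higher and 0 lower (background 16.9% called). The members' median log2 difference was 0.51 and that of all tested genes 0.02. Nlrc5 was 72.0, 36.4 and 57.5 in WT against 120.3, 210.6 and 322.5 in KO, a 3.73-fold difference (1.90 ± 0.28, adjusted p = 2.67e-05). The groups did not overlap, and even the highest KO library was below the lowest WT library of lung CD11b DCs. Tap1 was 428.3, 428.3 and 392.5 in WT against 667.2, 855.8 and 974.7 in KO (0.98 ± 0.13, adjusted p = 7.3e-06).

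B2m was 9952.5, 9184.8 and 9478.0 in WT against 14140, 14671 and 19369 in KO alveolar macrophages (0.74 ± 0.16, adjusted p = 0.00199). H2-D1 was 17267, 17026 and 16746 in WT against 21976, 21732 and 28102 in KO (0.48 ± 0.12, adjusted p = 0.00447). For both genes KO replicate 3 was the highest library. H2-K1, which was called in lung CD11b DCs, was not called here by limma (0.28 ± 0.11, adjusted p = 0.0778; DESeq2 called it, adjusted p = 0.0254), although its WT libraries (8193.2 to 9214.7) lay below its KO libraries (9407.1 to 12725). Tapbp rose from a mean of 3733 to 5533 (0.57 ± 0.09, adjusted p = 4.87e-05), Psmb9 from 299 to 436 (0.54 ± 0.11, adjusted p = 0.00127) and Psmb8 from 1809 to 2363 (0.38 ± 0.09, adjusted p = 0.00311). Psmb10 overlapped, at 627.0, 577.3 and 626.7 in WT against 605.3, 586.9 and 639.5 in KO (0.00 ± 0.12, adjusted p = 1). Tap2 was also not called (0.22 ± 0.15, adjusted p = 0.402), and its direction turned with a term for Y-linked reads (-0.49).

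Ly6c2 was 9.1, 6.6 and 11.9 in WT against 62.8, 379.9 and 168.1 in KO alveolar macrophages, while the sum of 8 monocyte markers was 248100 to 250600 in WT and 182000 to 198300 in KO. Ccr2 averaged 253.4 in WT and 322 in KO, so nearly all of that sum came from other genes of the list. The summed count of 9 alveolar macrophage markers was 319100 to 329100 in WT and 196500 to 216200 in KO. The part of these markers in the class I values was not tested. With a term for Y-linked reads 4 of the 10 genes were called (B2m, Tap1, Tapbp and Nlrc5), and H2-D1 (adjusted p = 0.108), Psmb8 (adjusted p = 0.132) and Psmb9 (adjusted p = 0.0902) were not. These are the highest adjusted p-values of those 3 genes over 15 alternatives.

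In inflammatory DCs 3 of the 10 genes were called higher in KO and 0 lower (background 3.37% called), with a members' median of 0.32 against -0.02 for all tested genes. Tap1 was 2417.3, 2512.6 and 2471.5 in WT against 2997.2, 4236.0 and 4091.5 in KO (0.60 ± 0.13, adjusted p = 0.0122). Psmb9 was 752.1, 759.3 and 737.5 in WT against 900.1, 1113.1 and 1160.6 in KO (0.49 ± 0.11, adjusted p = 0.0158). Psmb8 was 4311.0, 3777.0 and 4184.6 in WT against 4585.9, 5359.6 and 5493.5 in KO (0.33 ± 0.09, adjusted p = 0.0378). For all 3 genes the groups did not overlap and KO replicate 1 was the KO library nearest to WT.

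Nlrc5 was 960.2, 1113.7 and 977.6 in WT against 965.2, 1420.8 and 1952.7 in KO inflammatory DCs, with overlap (0.45 ± 0.28, adjusted p = 0.549). Tap2 (0.47, adjusted p = 0.102), Tapbp (0.27, adjusted p = 0.101), B2m (0.31), Psmb10 (0.17), H2-K1 (0.09) and H2-D1 (0.03) were not called by limma. DESeq2 called Tapbp (adjusted p = 0.029), and Tap2 gained a call under sample weights (0.0296) or a term for Y-linked reads (0.0186, both adjusted p). Both genotypes of this cell type held Y-linked reads. Ly6c2 averaged 719.5 in WT and 1501 in KO, and 8 monocyte markers summed to 165000 to 203600 in WT and 233800 to 304600 in KO. Ccr2, the list's other defining marker, averaged 4988 in WT and 7424 in KO, so most of the sum came from the rest of the list. The part of all these markers in the class I values was not tested. The count of 3 became 0 when WT replicate 1, KO replicate 2 or KO replicate 3 was left out, 2 without WT replicate 2, 1 without WT replicate 3, and 0 with the 6 libraries fitted alone.

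In the spleen none of the 10 genes was called in either DC type. In CD8a DCs limma called 0 of 10 (background 5.13%), and edgeR and DESeq2 also called 0. An unadjusted limma p under 0.05 was reached by 2 of the 10 and by 2319 of all 13311 tested genes. Tap2 stood at 1962.3 and 1991.9 in the WT libraries against 2766.2 and 2915.9 in KO (0.52 ± 0.19, adjusted p = 0.122). Psmb10 stood at 779.4 and 771.4 in WT against 615.2 and 625.7 in KO (-0.32 ± 0.15, adjusted p = 0.255). Neither pair of groups overlapped. With a term for Y-linked reads the direction of Tap2 turned (-0.27, adjusted p = 0.654), but that term rests mostly on KO replicate 1 of lung CD11b DCs. The remaining differences lay between -0.26 for H2-K1 and 0.27 for Nlrc5. Among those genes B2m, H2-K1, Tap1, Tapbp (-0.03) and Psmb8 (0.07) did not overlap between the genotypes either. The share of all tested genes without overlap was not computed for any comparison. Red pulp macrophage markers differed strongly in this sort, with a sum over 11 genes of 33520 to 57330 in WT and 3198 to 3586 in KO, and their part in these values was not tested.

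In spleen CD11b DCs limma called 0 of 10 (background 1.52%), and edgeR and DESeq2 called 0. An unadjusted limma p under 0.05 was reached by 0 of the 10 and by 1669 of all 13311 tested genes. Nlrc5 stood at 841.6 and 695.7 in WT against 1182.7 and 1066.6 in KO, without overlap (0.55 ± 0.35, adjusted p = 0.584). Tap1 stood at 3206.7 and 3068.2 in WT against 3336.3 and 2975.5 in KO, with overlap (0.01 ± 0.16, adjusted p = 1). The other 8 differences lay between -0.26 for Psmb10 and 0.14 for H2-K1. Of these 8 genes, H2-K1, Psmb8 and Psmb9 did not overlap between the genotypes either. With 2 libraries per genotype the standard errors in the spleen (0.11 to 0.35) were larger than in the lung (0.09 to 0.28).

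Whether the KO effect differed between cell types was tested directly. In lung against spleen CD11b DCs the effect was larger in the lung for 6 of 10 genes (background 12.5% called). These were Tap1 (1.15 ± 0.21, adjusted p = 0.00104), Psmb10 (1.02), B2m (0.97), Psmb9 (0.79), Tapbp (0.64) and Psmb8 (0.55). For Nlrc5 the difference was 1.09 ± 0.45 and fell short of the threshold (adjusted p = 0.114). With a term for Y-linked reads only Tap1 was called there. Without spleen CD11b WT replicate 2 or KO replicate 2 the count was 4.

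Against lung CD11b DCs, the KO effect in alveolar macrophages was called different for 1 of 10 genes (background 16.8% called), Psmb10 (-0.76 ± 0.17, adjusted p = 0.003). In inflammatory DCs it was smaller for 4 of 10 (background 13% called), namely B2m (-0.74), Psmb10 (-0.59), Tap1 (-0.56) and Tapbp (-0.39). Of these, edgeR did not call Tap1 (adjusted p = 0.0623) or Tapbp (adjusted p = 0.0537). With single libraries left out, 0 to 7 genes were called different in either direction. The 7 without lung KO replicate 1 hold 6 with a smaller effect and Tap2 with a larger one (0.58, adjusted p = 0.0211). Between spleen CD8a and CD11b DCs limma called 0 of 10 (background 2.45% called), and edgeR called 0. An unadjusted limma p under 0.05 was reached there by 1 of the 10 and by 1403 of all 13311 tested genes. The comparisons with lung CD11b DCs share those libraries. Xist was present in KO replicate 1 of both spleen cell types (3619.7 and 3092.4) and low in both KO replicates 2 (12.0 and 21.4), but no animal is named for any library, so they were treated as independent.

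The 3 immunoproteasome subunits were next set against the standard subunits they replace, as a log2 ratio of normalized counts within each library. Psmb5, Psmb6 and Psmb7 were themselves called higher in KO lung CD11b DCs (0.54, 0.65 and 0.36). The ratios Psmb8 to Psmb5 and Psmb9 to Psmb6 overlapped between the genotypes there, and Psmb10 to Psmb7 did not. The latter was 1.72, 1.69 and 1.60 in WT against 2.17, 1.96 and 2.53 in KO libraries (exact two-sided permutation p = 0.1). In alveolar macrophages, Psmb6 rose by 0.74 ± 0.11 (adjusted p = 2.2e-05) while Psmb5 (501.1 in WT, 500.7 in KO) and Psmb7 (-0.03) were not called. There Psmb8 to Psmb5 was 3.55, 3.49 and 3.81 in WT against 4.98, 4.40 and 4.78 in KO (exact two-sided permutation p = 0.1). In inflammatory DCs Psmb9 to Psmb6 was 0.304, 0.272 and 0.308 in WT against 0.350, 0.501 and 0.644 in KO (exact two-sided permutation p = 0.1).

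In the spleen Psmb8 to Psmb5 did not overlap in either DC type, nor did Psmb10 to Psmb7 in CD8a DCs. The smallest p that 3 against 3 libraries can give is 0.1, and 0.333 with 2 against 2, so no ratio could reach 0.05. Adjusted over the 15 exact permutation tests, the smallest p was 0.5.

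Across the 26 libraries the 10 genes followed each other to different degrees. The pairs with the highest Pearson correlation of log2 values were Tap1 with Psmb8 (0.98) and Tap1 with Nlrc5 (0.96), followed by Psmb8 with Psmb9 (0.91), Psmb8 with Nlrc5 (0.91) and B2m with Psmb10 (0.91). H2-D1 with Psmb9 was lowest (-0.05), and Tapbp with Psmb9 was 0.08. Of 13310 other tested genes, Tap1 was the most like Nlrc5, and Psmb8 ranked 31, H2-K1 66, Psmb9 266, B2m 519, Tap2 1072, Psmb10 1216, Tapbp 1853 and H2-D1 1890. Outside the 10, the genes most like Nlrc5 were Pyhin1 (0.96), Palm (0.95), Fam46c (0.95), Slamf8 (0.95) and H2-Q5 (0.95). The points share cell types and genotypes. With group means removed the correlation of Nlrc5 was 0.67 with H2-K1, 0.62 with Tap1, 0.46 with Tapbp, 0.44 with H2-D1 and 0.395 with B2m. It was 0.24 with Psmb8, 0.19 with Psmb9, 0.10 with Psmb10 and 0.07 with Tap2, so the order differed from the one across all libraries. Outside the 10, it was 0.69 with Pyhin1, above every member. It was 0.52 with Fam46c, 0.43 with H2-Q5, 0.20 with Palm and 0.16 with Slamf8. Ranks among all tested genes were not computed with group means removed.

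**Figure D4:**
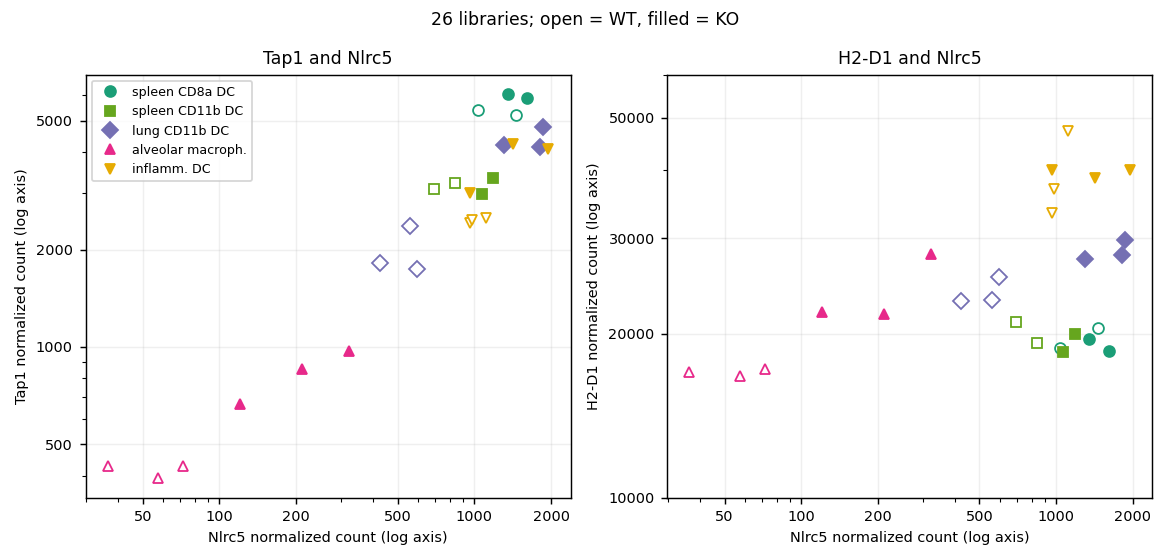
Normalized counts (log axes) of Tap1 (left) and H2-D1 (right) against Nlrc5 in the 26 libraries, by cell type, with WT open and KO filled. Tap1 follows Nlrc5 from alveolar macrophages to spleen CD8a DCs (r = 0.96 on log2 values), whereas H2-D1 does so less closely (r = 0.48).

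Other genes of the route did not all move with the 10. The counts in the lists that follow stand beside the share of all tested genes called in either direction, which was 26.1% in lung CD11b DCs, 16.9% in alveolar macrophages, 3.37% in inflammatory DCs and, in the spleen, 5.13% for CD8a and 1.52% for CD11b DCs. In KO lung CD11b DCs, where the median log2 difference of all tested genes was -0.05, the list medians were -0.06 for loading, trimming and folding, 0.36 for other core proteasome subunits, 0.30 for proteasome activators and assembly, 0.24 for other heavy chains, 0.05 for regulators and -0.16 for cross-presentation. In alveolar macrophages, against 0.02 for all tested genes, they were -0.32, -0.10, 0.11, 0.34, 0.04 and -0.01 in the same order. Of 9 genes of peptide loading, trimming and folding, limma called none higher in any of the 5 cell types, while edgeR and DESeq2 each called 1 higher in lung CD11b DCs. In KO, 1 fell in spleen CD8a DCs (the chaperone Calr, 4338 to 3236), 1 in lung CD11b DCs (the glycoprotein folding sensor Uggt1, 1977 to 1450), 4 in alveolar macrophages and 3 in inflammatory DCs. In alveolar macrophages Pdia3, which joins tapasin in the loading complex, fell from 12720 to 8438 (-0.59 ± 0.12, adjusted p = 0.000766) and Calr from 4683 to 3548. In inflammatory DCs the translocon gene Sec61a1 fell from 5040 to 3649 and the chaperone gene Hspa5 from 29040 to 18580.

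Of 11 other core proteasome subunits 9 rose in KO lung CD11b DCs, with a median of 0.36, among them Psmb4 (654 to 1011) and Psma2 (1145 to 1625). In alveolar macrophages and inflammatory DCs limma, edgeR and DESeq2 called 0 of the 11. An unadjusted limma p under 0.05 was reached by 0 of them, against 3673 and 1824 of all 13311 tested genes. In spleen CD11b DCs Psma2 fell from 1423 to 1022 (limma, adjusted p = 0.0406), where edgeR called 0 and DESeq2 2 of the 11. Of the 11, 8 had an unadjusted limma p under 0.05 there, as did 1669 of all 13311 tested genes. Of 9 proteasome activators and assembly factors, 3 rose in lung CD11b DCs (background 26.1%), 3 rose and 1 fell in alveolar macrophages (background 16.9%) and 1 rose in inflammatory DCs (background 3.37%). The lung CD11b share of these 9 genes is near its background. Psme1 and Psme2 encode the PA28 activator. Psme2 rose from 1709 to 2821 in lung CD11b DCs and from 908 to 1243 in alveolar macrophages. Psme1 rose from 2222 to 3084 in lung CD11b DCs, from 972 to 1296 in alveolar macrophages and from 1944 to 2709 in inflammatory DCs.

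Of 26 other class I and class I-like heavy chain genes 16 passed the filter. In lung CD11b DCs of KO mice 4 of the 16 rose and 3 fell, in alveolar macrophages 7 rose and 2 fell, in inflammatory DCs 1 rose and 2 fell, and in spleen CD8a DCs 2 fell. H2-T23, which encodes Qa-1, rose from 1809 to 4734 in alveolar macrophages (1.39 ± 0.08, adjusted p = 9.12e-12). H2-M2 rose in alveolar macrophages from 9.56 to 178.5, and fell in lung CD11b DCs from 649 to 113 and in spleen CD8a DCs from 310 to 36.4. Fcgrt, the neonatal Fc receptor, fell in lung CD11b DCs (2210 to 985) and inflammatory DCs (1313 to 750). Cd1d1, which presents lipids, rose from 412 to 846 in inflammatory DCs, and Mr1, which presents vitamin B metabolites, fell from 30.1 to 5.12 in spleen CD8a DCs.

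Of 17 regulators of class I transcription, 4 rose in KO lung CD11b DCs (background 26.1%). In alveolar macrophages 3 rose and 1 fell (background 16.9%). Both shares are near their backgrounds. In inflammatory DCs 2 rose (background 3.37%). In the spleen limma, edgeR and DESeq2 called 0 in either cell type. An unadjusted limma p under 0.05 was reached by 1 of the 17 in CD8a DCs (2319 of all 13311 tested genes) and by 4 in CD11b DCs (1669 of 13311). Irf8 rose from 1193 to 3154 in lung CD11b DCs (1.40 ± 0.16, adjusted p = 9.98e-07), Irf9 from 238 to 592 in alveolar macrophages and Irf1 from 1820 to 3248 in inflammatory DCs. Ciita, the class II counterpart of Nlrc5, fell from 158 to 102 in alveolar macrophages.

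Of 12 cross-presentation genes, 2 were called higher and 4 lower in KO lung CD11b DCs (background 26.1%), 2 rose and 1 fell in alveolar macrophages (background 16.9%), 3 rose and 1 fell in inflammatory DCs (background 3.37%), 2 fell in spleen CD8a DCs (background 5.13%) and 1 rose in spleen CD11b DCs (background 1.52%). The alveolar macrophage share of these 12 genes is near its background. Wdfy4, needed for cross-presentation by CD8a-type DCs, fell from 5607 to 2242 in lung CD11b DCs. Mrc1, the mannose receptor, fell from 3208 to 1531 in lung CD11b DCs, from 16500 to 11430 in alveolar macrophages and from 1378 to 69.3 in spleen CD8a DCs, and rose from 130 to 222 in spleen CD11b DCs. Mrc1 is also 1 of the 11 red pulp macrophage markers, whose sum differed in the CD8a sort. Sec22b, a vesicle fusion gene, fell from 709 to 510 in spleen CD8a DCs. Of the 12 genes, edgeR called 1 lower and DESeq2 2 lower in spleen CD8a DCs. In spleen CD11b DCs edgeR called 0, and DESeq2 called 2 higher and 1 lower. In inflammatory DCs Cybb, the oxidase subunit of the phagosome, rose from 17260 to 29500 and Clec9a, a receptor for dead cells, from 78.3 to 216, and Clec9a also rose in alveolar macrophages (31.9 to 77.0).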

How the data were processed

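RNA-seq covered 26 libraries of sorted mouse cells. The submitters' processing notes name STAR 2.3.1s, the build mm10, HTSeq and DESeq2 1.10.1. No source used here gives the HTSeq version, the annotation or the strand setting. The values the authors deposited are a signal per gene, that is, a read count divided by the library's size factor (0.754 to 1.48). Whole reads were recovered for 100% of values within 1e-06 reads.

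Each log2(normalized count + 1) was fitted with limma 3.58.1 (R 4.3.3) over all libraries as 10 group means, with a mean-variance trend. Benjamini-Hochberg adjustment ran over 13311 genes within each contrast, and an adjusted p under 0.05 was called. Fold changes are on this scale and understate those of low genes. Errors are standard errors of the fit. Nothing says that libraries came from separate animals, so p-values measure spread between samples, which may be technical. Exact permutation tests covered the ratios. Alternatives were edgeR 4.0.16 and DESeq2 1.42.0 on recovered reads, other pseudocounts (0.25 and 8), no filter, TMM factors, sample weights, a Y-linked term, each pair fitted alone and single libraries left out. The scripts were tested on simulated data. The genes, lists and tests were chosen with earlier results of these data known. Named were the 10 genes, Mtor, Psmb5 to Psmb7, up to 2 called genes of smallest p per list and KO comparison, the 5 genes most like Nlrc5, and markers. H2-M3 was named after the promoter search. One gene that this rule names is not reported here.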

Additional observations from a re-analysis of the deposited data

Results flagged for a closer look

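The KO effect differed between cell types for several of the 10 genes, by the limma interaction contrast with the adjusted p under 0.05. Lung minus spleen CD11b DCs gave positive log2 differences for B2m (0.97, adjusted p = 0.0144), Tap1 (1.15, adjusted p = 0.00104), Tapbp (0.64, adjusted p = 0.00457), Psmb8 (0.55, adjusted p = 0.0108), Psmb9 (0.79, adjusted p = 0.00527) and Psmb10 (1.02, adjusted p = 0.00133). Alveolar macrophages minus lung CD11b DCs gave -0.76 for Psmb10 (adjusted p = 0.003). Inflammatory minus lung CD11b DCs gave -0.74 for B2m (adjusted p = 0.035), -0.56 for Tap1 (adjusted p = 0.0485), -0.39 for Tapbp (adjusted p = 0.041) and -0.59 for Psmb10 (adjusted p = 0.0238). There edgeR did not call Tap1 (adjusted p = 0.0623) or Tapbp (adjusted p = 0.0537) and did call Nlrc5 (-1.15, adjusted p = 0.0394). Tap1 also lost its limma call with a pseudocount of 0.25 (adjusted p = 0.05325). Y-linked reads, Ly6c2 and Mtor itself also differed between these groups. Their part in the differences was not tested beyond the term for Y-linked reads, which rests mostly on KO replicate 1 of lung CD11b DCs.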

How the results depend on the processing

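Of 1839 single-gene or ratio values under the alternatives, 78 lost a call with the sign kept, 25 gained one, and 52 changed sign. The 1 sign change of a called value also lost its call. It was Tap2 in WT inflammatory against lung CD11b DCs (-0.39 with the Y-linked term, limma adjusted p = 0.149). Of the 52, 11 had a reported size of at least 0.1. With the Y-linked term these included the KO effects of B2m (0.35) and Tap2 (-0.27) in spleen CD8a DCs and of Tap2 in lung CD11b DCs (-0.11) and alveolar macrophages (-0.49). That term rests mostly on KO replicate 1 of lung CD11b DCs, which had the lowest B2m and the highest Tap2 of its group. The causes were not tested. Fitting only the libraries compared leaves fewer samples and shares no spread with the other groups. Members called were then 5 in lung CD11b DCs and 0 in inflammatory DCs. All genes called were 0 in spleen CD8a, 0 in spleen CD11b, 856 in lung CD11b, 3863 in alveolar macrophages and 0 in inflammatory DCs, against 683, 202, 3471, 2247 and 448. The number thus rose in alveolar macrophages and fell elsewhere. Sample weights keep all libraries, and were 0.31 to 0.431 in KO lung CD11b DCs and 2.12 to 2.19 in WT alveolar macrophages. With them 652 genes were called in spleen CD11b, 1897 in lung CD11b, 4509 in alveolar macrophages and 843 in inflammatory DCs, where 5 members were called. The Y-linked term gave 246 genes in spleen CD8a and 65 in spleen CD11b DCs, 4 members in alveolar macrophages, 1 member for the difference lung minus spleen CD11b and 7 for inflammatory minus lung CD11b, with Tap2 in the opposite direction (0.57). DESeq2 gave 361 genes in spleen CD11b DCs.

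With single libraries left out, all genes called were 376 to 622 in spleen CD8a DCs (376 without KO replicate 1, 427 without KO replicate 2), 29 to 224 in spleen CD11b DCs (70 without WT replicate 2, 46 without KO replicate 1, 29 without KO replicate 2) and 208 to 409 in inflammatory DCs (208 without WT replicate 1, 257 without WT replicate 3, 237 without KO replicate 2, 252 without KO replicate 3). Members called were 0 to 4 in inflammatory DCs, 2 to 4 in WT lung against spleen CD11b DCs (4 without lung WT replicate 3) and 0 to 7 for the difference inflammatory minus lung CD11b. The last was 0 without lung WT replicate 1, lung KO replicate 3 or inflammatory KO replicate 1, and 7 without lung KO replicate 1, Tap2 again opposite (0.58). Where a lone sample was left it was assumed to vary like the other groups. No paired analysis was possible because replicate numbers were given in accession order and no animals were named. Groups of 2 or 3 libraries limit all results, and Nlrc5 in WT alveolar macrophages rests on few reads.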
